A study of Homo sapiens with 12 samples.

Results

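Glutathione synthesis and cystine import were examined through 10 genes listed by function, GCLC, GCLM, GSS, GSR, SLC7A11, SLC3A2, GGT1, CHAC1, CHAC2 and GGCT. They were found by matching the Ensembl identifiers of the expression files to gene symbols, and all 10 were present, each under 1 identifier, among the 57815 genes of every file. The rule used no expression value, but the genes were chosen with earlier results of these data known.

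Glutathione is a tripeptide of glutamate, cysteine and glycine and the most abundant thiol of the cell. Cystine enters through system xc-, a carrier made of the transport subunit SLC7A11 and the surface chaperone SLC3A2, and is reduced to cysteine. Glutamate-cysteine ligase, built from the catalytic subunit GCLC and the modifier subunit GCLM, makes gamma-glutamylcysteine, and glutathione synthetase, GSS, adds glycine. Glutathione reductase, GSR, returns the oxidised dimer to its reduced form. GGT1 splits glutathione outside the cell, CHAC1 and CHAC2 split it inside, and GGCT processes the gamma-glutamyl amino acids that arise in the cycle. NRF2, the product of NFE2L2, is a transcription factor that KEAP1 marks for degradation, and GCLC, GCLM, GSR and SLC7A11 are textbook NRF2 targets that carry antioxidant response elements. CHAC1, SLC7A11 and SLC3A2 are also known targets of ATF4, the transcription factor of amino acid shortage.

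RNA was sequenced from 3 human non-small cell lung cancer lines whose genotype is given as KEAP1 mutation positive. A549 and H2023 are labelled lung adenocarcinoma and H460 lung large cell carcinoma. A549 was grown in high glucose DMEM and H460 and H2023 in low glucose DMEM, and the cells were collected 48 h after they had received either NRF2 siRNA or control siRNA, so that every group carried the KEAP1 mutation and every control group had itself been transfected. Each of the 6 groups held 2 libraries, numbered 0 and 1, and the NRF2 siRNA group of each line combined siRNA 28 in library 0 with siRNA 30 in library 1, so that its spread included any difference between the siRNAs. The A549 libraries were made after removal of ribosomal RNA and those of H2023 and H460 after polyA selection, all of them strand-specific, so that the A549 line, its medium and its library protocol cannot be told apart, and A549 levels are not set against those of the other lines. Values are FPKM, that is fragments scaled to transcript length and library size, in bulk cultures, in which fewer expressing cells and less RNA per cell cannot be told apart.

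The promoter windows of the genes are shown because both the NRF2 and the ATF4 families bind short known motifs. RefSeq windows on GRCh38.p14, from 250 bases before to 50 bases after a transcript start, were found for 6 of the 10 genes, GCLC, GCLM, SLC3A2, GGT1, CHAC1 and CHAC2, with 10 windows among them. GSS, GSR, SLC7A11 and GGCT had no window here. Both strands were searched for TGACNNNGC, the core of the antioxidant response element, and for TGATGNAA, the core of the element bound by C/EBP-ATF dimers. The former was present in 13.3% of all 35116 windows and the latter in 3.62%. GCLM held the antioxidant core at 34 to 26 bases before the start. Of 3 SLC3A2 windows, window 1 held it at 37 to 29 bases before its start. Of 2 GGT1 windows, window 2 held it at 29 to 21 bases before its start. CHAC1 held the C/EBP-ATF core at 209 to 202 bases before the start, and the same SLC3A2 window held it at 37 to 44 bases after the start. The other SLC3A2 windows and the other GGT1 window held neither core. The GCLC and CHAC2 windows held neither. Stretches of 120 bases, read 5′ to 3′ on the strand of the gene, are given with the matches before the start in capitals, and without the SLC3A2 match after the start, which lies outside its stretch, for GCLM (chr1:93909431-93909550, minus strand), SLC3A2 (chr11:62881579-62881698, plus strand), GGT1 (chr22:24603073-24603192, plus strand) and CHAC1 (chr15:40953221-40953340, plus strand). A match describes the letters of the window and is not evidence of binding.
GCLM: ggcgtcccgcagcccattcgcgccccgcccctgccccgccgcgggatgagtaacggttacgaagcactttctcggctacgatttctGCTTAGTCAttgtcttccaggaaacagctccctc
SLC3A2: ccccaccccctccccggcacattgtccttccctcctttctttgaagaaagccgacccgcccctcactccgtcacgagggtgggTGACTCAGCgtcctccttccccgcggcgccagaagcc
GGT1: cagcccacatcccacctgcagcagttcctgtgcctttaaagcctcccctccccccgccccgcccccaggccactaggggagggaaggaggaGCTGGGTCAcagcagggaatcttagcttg
CHAC1: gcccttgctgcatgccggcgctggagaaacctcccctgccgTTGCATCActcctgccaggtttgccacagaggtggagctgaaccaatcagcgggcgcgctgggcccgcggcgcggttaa

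The libraries held 12732 to 13909 genes at 1 FPKM or above, and the depth of each library in reads is unknown from FPKM. The mitochondrial share of the summed FPKM moved with the knockdown in the polyA-selected lines. It was 8.56% and 13.1% in control libraries 0 and 1 of H460 and 20.8% and 26.0% with siRNA 28 and siRNA 30, and 11.97% and 18.1% against 17.3% and 22.8% in H2023, where the groups overlapped. In A549 it was 1.29% and 1.28% against 0.892% and 1.56%. With FPKM rescaled without mitochondrial transcripts, the same numbers of the 10 genes were lower, 4 in A549, 3 in H2023, 5 in H460 and 5 on average, and none was higher. Of 5 epithelial markers, 5 reached 1 FPKM in every library of A549 and of H2023 and 3 in every library of H460, whereas the lung lineage markers NKX2-1, SFTPB and SFTPC stayed under 1 FPKM in all 12 libraries and NAPSA in all but the siRNA 30 library of H2023, at 1.25 FPKM. Of the haematopoietic markers, PTPRC and CD3E stayed under 1 FPKM in all 12 libraries, and CD68 lay between 14.0 and 57.7 FPKM. The endothelial markers VWF and CDH5 stayed under 1 FPKM in all 12 libraries. Of 4 fibroblast markers, all were under 1 FPKM in every A549 library, and COL1A1 exceeded 1 FPKM in every H2023 and H460 library. Some markers moved with the knockdown. The cadherin CDH1 rose in H2023 from 12.6 and 8.05 FPKM to 65.0 and 58.3 FPKM, a log2 fold change of 2.497 ± 0.24 (limma adjusted p = 0.0280), and the collagen COL1A1 rose in H460 from 1.81 and 2.06 FPKM to 5.94 and 5.81 FPKM, at 1.23 ± 0.26 (adjusted p = 0.0329). No other marker passed in the fits of single lines. The keratin KRT8 was at 1.12 ± 0.19 in H2023 and 1.10 ± 0.35 in H460 (adjusted p = 0.0819 and 0.0808), the keratin KRT18 at 0.99 ± 0.19 and 0.59 ± 0.23 (adjusted p = 0.109 and 0.129), and CD68 at 0.90 ± 0.15 in A549 and -0.76 ± 0.31 in H460 (adjusted p = 0.0975 and 0.141). In the fit of all 12 libraries KRT8 and KRT18 rose on average, at 0.78 ± 0.16 and 0.60 ± 0.12 (adjusted p = 0.00638 and 0.00556), and KRT18 in H2023 and KRT8 and CD68 in H460 passed (adjusted p = 0.0303, 0.0145 and 0.0337). The part of these shifts in the results for the glutathione and cystine genes was not tested.

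NFE2L2, the targeted gene, fell in each line, at -2.24 ± 0.22 in A549, -3.86 ± 0.16 in H2023 and -3.60 ± 0.34 in H460 on the log2 scale (SE, limma adjusted p = 0.0178, 0.00529 and 0.0111). The control libraries of H460 stood apart from each other. Of 10 genes listed for the ATF4 pathway, 9 were at least 1.5-fold higher in control library 0 than in control library 1, against 10.9% of all 13446 genes tested, and no such gene was at least 1.5-fold higher in control library 0 of A549 or of H2023. Of the 10 glutathione and cystine genes, GCLC, SLC3A2 and CHAC1 were at least 1.5-fold higher in control library 0 of H460.

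On average over the lines, knockdown of NRF2 lowered the glutamate-cysteine ligase subunits, the cystine carrier subunits and glutathione reductase, while glutathione synthetase and the enzymes of glutathione breakdown did not pass the test. Differences were tested with limma on log2(FPKM + 1), a scale on which changes of weakly expressed genes come out too small, at a Benjamini-Hochberg adjusted p under 0.05 over all genes tested. In A549, 4 of the 10 genes were lower, against a background of 0.554% of all genes, and in H2023, 3 were lower, against 0.583%. In H460, 5 were lower, against 6.86% of all genes. These counts within single lines depended on which libraries were included, as given in the section on processing. On average over the lines, in a fit of all 12 libraries, 5 were lower, against 14.5%. None of the 10 was called higher in any of these fits, where 0.122%, 0.327%, 7.12% and 15.2% of all genes were. The median log2 fold change of the 10 genes was -0.76 in A549, -0.42 in H2023, -1.45 in H460 and -0.80 on average, beside medians of 0.02, 0.02, -0.01 and -0.01 over all genes tested. With no filter on low values no gene passed within a line, while the same count of 5 was lower on average. Both NRF2 siRNA libraries lay below both control libraries for 7 of the 10 genes in A549, 5 in H2023 and 7 in H460, against 20.5%, 22% and 31.6% of all genes. They lay above both for 1, 3 and 0 of them, against 25.2%, 27% and 31.1%.

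**Figure D1:**
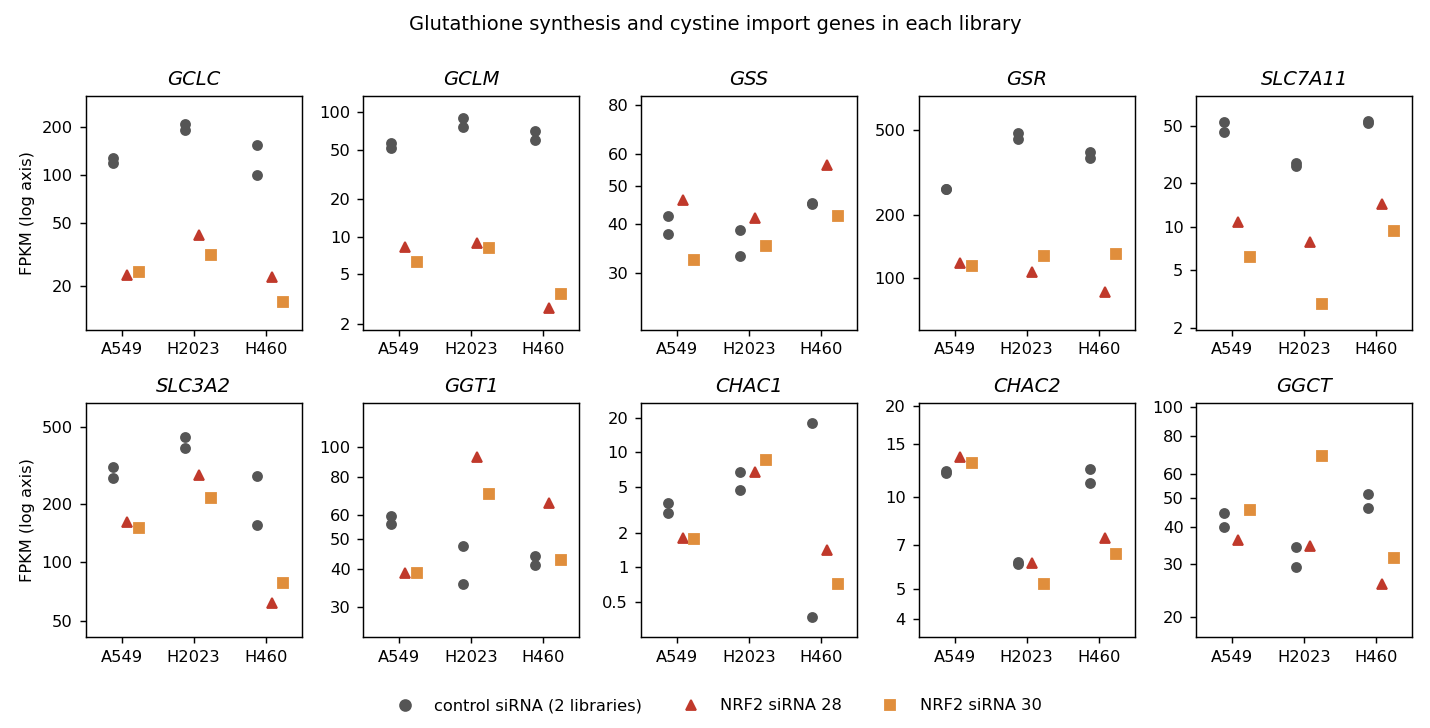
FPKM of the 10 genes in each of the 12 libraries, on log axes that differ between panels. Grey circles are the 2 control siRNA libraries of a line, red triangles the NRF2 siRNA 28 library and orange squares the NRF2 siRNA 30 library. GCLC, GCLM, GSR, SLC7A11 and SLC3A2 lie lower with either NRF2 siRNA in each of the 3 lines, whereas GSS overlaps between the groups and GGT1 lies lower in A549 and higher in H2023.

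Glutamate-cysteine ligase catalyses the rate-limiting step of glutathione synthesis. Its catalytic subunit GCLC (ENSG00000001084.6, chr6:53362139-53481768, minus strand, GRCh37) was at 128 and 119 FPKM in the A549 control libraries, 23.4 FPKM with siRNA 28 and 24.3 FPKM with siRNA 30. In H2023 it was at 211 and 192 FPKM in the controls and at 41.9 and 31.4 FPKM with siRNA 28 and siRNA 30, and in H460 at 155 and 101 FPKM in the controls and at 22.7 and 15.9 FPKM with the NRF2 siRNAs. The groups did not overlap in any line, and the mean that remained with NRF2 siRNA was 19.3%, 18.2% and 15.1% of the control mean in A549, H2023 and H460. GCLC fell by 2.33 ± 0.13 on the log2 scale in A549 (SE, limma adjusted p = 0.00314), by 2.44 ± 0.19 in H2023 (adjusted p = 0.0169) and by 2.65 ± 0.30 in H460 (adjusted p = 0.0127).

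The modifier subunit GCLM (ENSG00000023909.5, chr1:94350755-94375012, minus strand, GRCh37) raises the affinity of the ligase for glutamate and eases its inhibition by glutathione. It was at 56.9 and 51.3 FPKM in the A549 controls, 8.35 FPKM with siRNA 28 and 6.34 FPKM with siRNA 30. The H2023 controls were at 90.1 and 76.4 FPKM and the knockdown libraries at 9.01 and 8.16 FPKM, and the H460 controls were at 60.1 and 70.2 FPKM and the knockdown libraries at 2.71 and 3.51 FPKM. With 13.6%, 10.3% and 4.78% of the control mean remaining in A549, H2023 and H460, GCLM had the lowest remaining share of the 10 genes in each line. Its log2 fold change was -2.73 ± 0.17 in A549 (limma adjusted p = 0.00362), -3.13 ± 0.18 in H2023 (adjusted p = 0.00713) and -4.01 ± 0.25 in H460 (adjusted p = 0.00448).

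The FPKM ratio of GCLM to GCLC was 0.445 and 0.429 in the A549 controls and 0.357 and 0.261 with siRNA 28 and siRNA 30, 0.427 and 0.398 against 0.215 and 0.259 in H2023, and 0.388 and 0.698 against 0.119 and 0.221 in H460. Each of the 6 NRF2 siRNA ratios was below both control ratios of its line, although the H460 controls differed widely from each other. The ratios were not tested. On average over the lines GCLC fell by 2.47 ± 0.14 and GCLM by 3.29 ± 0.11 on the log2 scale (SE, limma adjusted p = 3.20e-06 and 6.81e-08). The within-line calls rest on 4 libraries each. Without control library 0 or 1 of H2023 the adjusted p was 0.118 or 0.0956 for GCLC and 0.0776 or 0.0586 for GCLM, and without control library 0 or 1 of H460 it was 0.121 or 0.0729 for GCLC and 0.0620 or 0.0614 for GCLM, while the calls in A549 and on average held without any library.

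**Figure D2:**
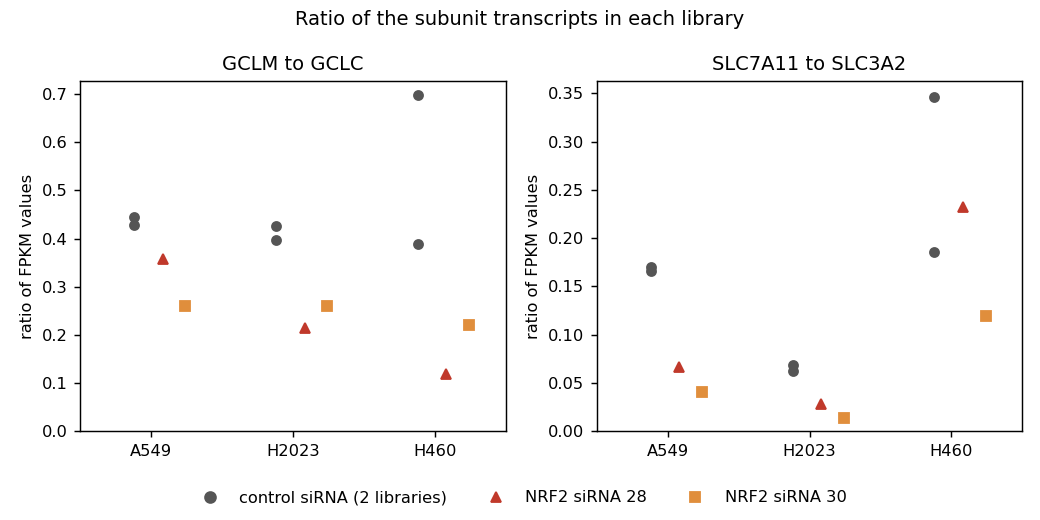
FPKM ratio of GCLM to GCLC and of SLC7A11 to SLC3A2 in each of the 12 libraries, with grey circles for control siRNA, red triangles for NRF2 siRNA 28 and orange squares for NRF2 siRNA 30. The GCLM to GCLC ratio is lower with either NRF2 siRNA in each line, whereas the SLC7A11 to SLC3A2 ratio is lower in A549 and H2023 and overlaps between the groups in H460.

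The cystine carrier SLC7A11 (ENSG00000151012.9, chr4:139085251-139163503, minus strand, GRCh37) exchanges extracellular cystine for glutamate. Its level was 53.1 and 45.1 FPKM in the A549 controls, 10.8 FPKM with siRNA 28 and 6.17 FPKM with siRNA 30. In H2023 it was 27.7 and 26.4 FPKM in the controls, 7.89 FPKM with siRNA 28 and 2.91 FPKM with siRNA 30, and in H460 it was 52.0 and 54.0 FPKM, 14.3 FPKM and 9.32 FPKM. All knockdown libraries were below all control libraries of the same line, and in each line the siRNA 30 library was the lower of the pair. The mean with NRF2 siRNA was 17.3%, 19.98% and 22.3% of the control mean in A549, H2023 and H460. SLC7A11 fell by 2.44 ± 0.26 on the log2 scale in A549 (limma adjusted p = 0.0262) and by 2.10 ± 0.27 in H460 (adjusted p = 0.0158). In H2023 the log2 fold change of -2.25 ± 0.40 did not pass the threshold in the fit of that line (adjusted p = 0.0950), in which the spread between the siRNAs entered the error. It passed in the fit of all 12 libraries (adjusted p = 0.00785), which shares 1 spread over lines that differed in spread. In that fit 4 of the 10 genes were lower in A549, 4 in H2023 and 6 in H460, against 0.614%, 1.75% and 17.8% of all genes, and 0, 1 and 0 were higher, against 0.0778%, 2.18% and 15.5%.

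SLC3A2 (ENSG00000168003.12, chr11:62623476-62656352, plus strand, GRCh37), which also carries other amino acid transporters to the surface, was more abundant per length than SLC7A11 in every library. It was at 311 and 272 FPKM in the A549 controls and 162 and 151 FPKM with siRNA 28 and siRNA 30. It was at 440 and 386 FPKM against 281 and 213 FPKM in H2023, and at 280 and 156 FPKM against 61.6 and 77.8 FPKM in H460. The groups did not overlap in any line. SLC3A2 fell by 1.58 ± 0.32 on the log2 scale in H460 (limma adjusted p = 0.0314), where the control libraries differed most. The log2 fold change was -0.89 ± 0.14 in A549 (adjusted p = 0.0918) and -0.75 ± 0.20 in H2023 (adjusted p = 0.170), and neither passed. The share that remained was 53.5%, 59.8% and 32.0% of the control mean in A549, H2023 and H460.

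The SLC7A11 to SLC3A2 ratio was 0.171 and 0.166 in the A549 controls and 0.0669 and 0.0410 with siRNA 28 and siRNA 30, and 0.0629 and 0.0683 against 0.0281 and 0.0136 in H2023. In H460 it was 0.186 and 0.346 in the controls and 0.232 and 0.120 with siRNA 28 and siRNA 30, so that the groups overlapped. On average over the lines SLC7A11 fell by 2.26 ± 0.21 (limma adjusted p = 8.26e-05) and SLC3A2 by 1.07 ± 0.15 (adjusted p = 0.000840). Without control library 0 or 1 of A549 the SLC7A11 adjusted p in that line was 0.101 or 0.0576, and without control library 0 or 1 of H460 it was 0.135 or 0.117. The SLC3A2 log2 fold change in H460 was -1.16 without control library 0, which was the higher one for the ATF4 list, and -1.999 without control library 1, with adjusted p of 0.217 and 0.0997.

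Glutathione reductase, GSR (ENSG00000104687.8, chr8:30535583-30585363, minus strand, GRCh37), was the most abundant of the 10 genes in the H2023 and H460 controls. It was at 265 and 264 FPKM in the A549 controls and 119 and 115 FPKM with siRNA 28 and siRNA 30. It was at 487 and 458 FPKM against 108 and 128 FPKM in H2023, and at 395 and 371 FPKM against 85.9 and 130 FPKM in H460. The control libraries of each line lay close together and the groups did not overlap, with 44.2%, 24.9% and 28.2% of the control mean remaining in A549, H2023 and H460. GSR fell in each line, with log2 fold changes of -1.17 ± 0.13 in A549 (limma adjusted p = 0.0275), -2.001 ± 0.16 in H2023 (adjusted p = 0.0187) and -1.85 ± 0.27 in H460 (adjusted p = 0.0188), and with -1.67 ± 0.11 on average (adjusted p = 9.45e-06). Leaving out a control library of the line, 0 or 1, raised the adjusted p to 0.182 or 0.171 in A549, 0.153 or 0.111 in H2023 and 0.160 or 0.124 in H460.

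Glutathione synthetase, GSS (ENSG00000100983.5, chr20:33516235-33543830, minus strand, GRCh37), catalyses the step that follows the ligase. It was at 37.7 and 41.8 FPKM in the A549 controls and 46.1 and 32.4 FPKM with siRNA 28 and siRNA 30. The H2023 controls were at 38.6 and 33.2 FPKM and the knockdown libraries at 41.4 and 35.1 FPKM, and the H460 controls were at 45.06 and 45.01 FPKM and the knockdown libraries at 56.3 and 41.8 FPKM. The groups overlapped in each of the 3 lines, and the siRNA 28 library was the highest and the siRNA 30 library below it in every line. The average log2 fold change of GSS was 0.05 with a 95% confidence interval of -0.21 to 0.32 (limma adjusted p = 0.771), an interval that lies apart from those of GCLC, from -2.77 to -2.17, and of GCLM, from -3.53 to -3.05.

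**Figure D3:**
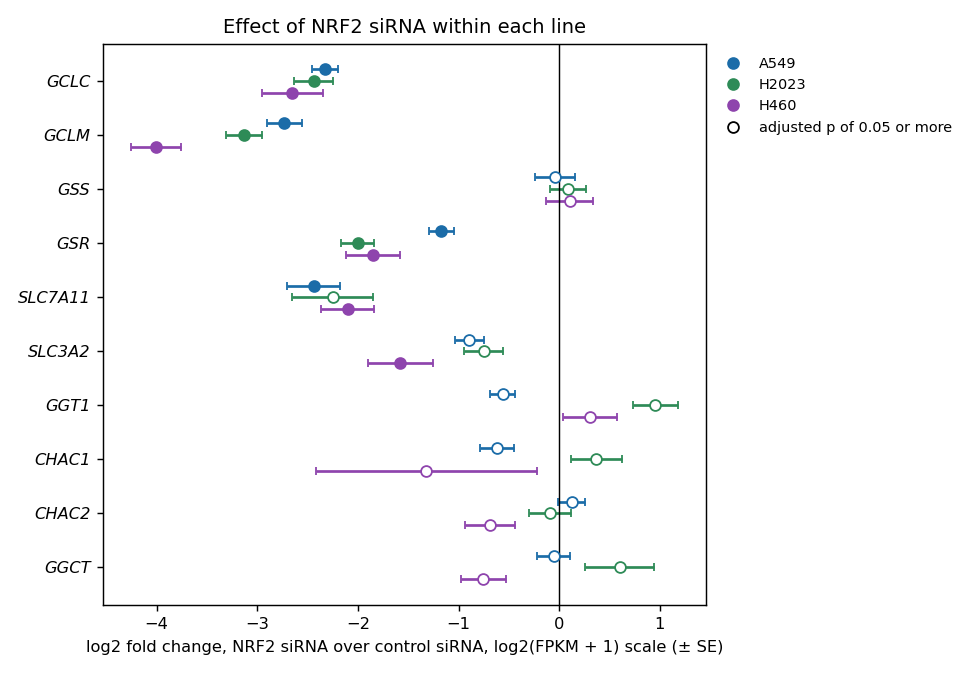
Log2 fold change of NRF2 siRNA over control siRNA for each of the 10 genes in A549 (blue), H2023 (green) and H460 (purple), on the log2(FPKM + 1) scale, with bars of 1 SE from limma. Filled circles passed an adjusted p of 0.05 and open circles did not. GCLM, GCLC, SLC7A11, GSR and SLC3A2 lie below 0 in every line, and the bar of CHAC1 in H460 is the widest.

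GGT1 (ENSG00000100031.14, chr22:24990778-25024972, plus strand, GRCh37) starts the breakdown of extracellular glutathione and so returns cysteine to the cell. Near-identical GGT copies lie elsewhere on chromosome 22, and reads may be split among them, so its values are uncertain. It was at 59.4 and 56.3 FPKM in the A549 controls and at 38.8 FPKM with either siRNA. In H2023 it was at 47.6 and 35.8 FPKM in the controls and 93.1 and 70.4 FPKM with siRNA 28 and siRNA 30, and in H460 at 44.1 and 41.0 FPKM against 65.8 and 42.6 FPKM. The knockdown libraries were thus below both controls in A549 and above both in H2023, and the groups overlapped in H460. On the log2 scale the differences were -0.56 ± 0.13 in A549, 0.96 ± 0.23 in H2023 and 0.31 ± 0.27 in H460, and they did not pass in the fits of the lines (limma adjusted p = 0.183, 0.145 and 0.460). In H2023 GGT1 passed in the fit of all 12 libraries (adjusted p = 0.0441), which shares 1 spread over the lines. The average of 0.23, with a 95% confidence interval of -0.05 to 0.52, did not pass either (adjusted p = 0.200). It was 0.63 (adjusted p = 0.0426) in the polyA-selected lines alone, an alternative chosen after the values were seen. Without the siRNA 30 library of H460, which leaves 1 knockdown library in that line, the average was 0.34.

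CHAC1 (ENSG00000128965.7, chr15:41245160-41248710, plus strand, GRCh37) cleaves reduced glutathione in the cytosol and is best known as a gene of the unfolded protein and amino acid responses. It had the lowest mean of the 10 genes in the controls of each line. It was at 2.95 and 3.64 FPKM in the A549 controls and 1.81 and 1.78 FPKM with siRNA 28 and siRNA 30. In H2023 it was at 6.72 and 4.75 FPKM in the controls and 6.72 and 8.54 FPKM in the knockdown libraries, with siRNA 28 just above the higher control. In H460 it was at 17.8 FPKM in control library 0, 0.370 FPKM in control library 1, 1.41 FPKM with siRNA 28 and 0.717 FPKM with siRNA 30. The H460 control libraries thus lay on either side of both knockdown libraries, and the log2 fold change of -1.32 ± 1.10 there carried the largest error of the 10 genes (limma adjusted p = 0.440). The average of -0.52 had a 95% confidence interval of -1.63 to 0.58 (adjusted p = 0.456). Without control library 1 of H460 the average was -1.15 (adjusted p = 0.00155), and without control library 0 CHAC1 no longer passed the filter on low values in H460.

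The ATF4 pathway moved with CHAC1 between the H460 controls. ATF4 itself was at 497 FPKM in control library 0 and 247 FPKM in control library 1, its target DDIT3 at 128 and 10.4 FPKM, the stress factor ATF3 at 21.3 and 2.21 FPKM and the pseudokinase TRIB3 at 113 and 26.1 FPKM. These 4 genes were chosen after their values were seen. All 10 genes of the list were higher in control library 0, and the part of this difference in the H460 results of CHAC1, SLC3A2 and GCLC was not tested beyond leaving out each library. For GCLC the log2 fold change in H460 was -2.34 without control library 0 and -2.96 without control library 1.

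**Figure D4:**
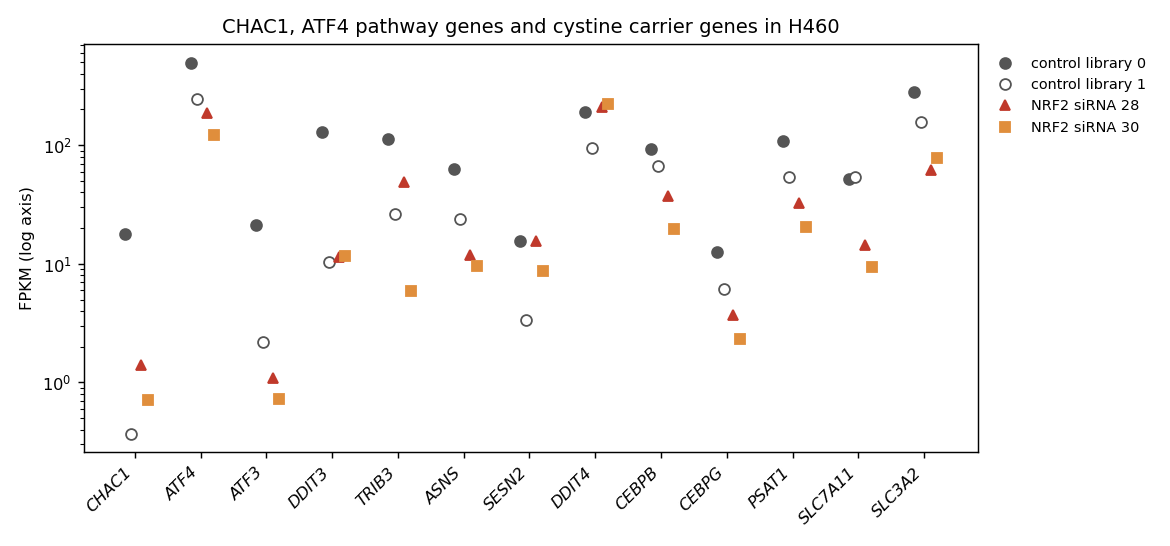
FPKM in the 4 H460 libraries, on a log axis, for CHAC1, the 10 genes of the ATF4 pathway list, SLC7A11 and SLC3A2. Filled grey circles are control library 0, open circles control library 1, red triangles NRF2 siRNA 28 and orange squares NRF2 siRNA 30. Each ATF4 pathway gene lies higher in control library 0 than in control library 1, and the gap is widest for CHAC1, at 17.8 against 0.370 FPKM.

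CHAC2 (ENSG00000143942.4, chr2:53994941-54002333, plus strand, GRCh37) is the constitutive enzyme of the same reaction. It was at 12.1 and 12.2 FPKM in the A549 controls and 13.6 and 13.02 FPKM with siRNA 28 and siRNA 30, and at 6.04 and 6.14 against 6.10 and 5.21 FPKM in H2023. In H460 it was at 11.2 and 12.4 FPKM in the controls and 7.35 and 6.53 FPKM in the knockdown libraries, without overlap. Its log2 fold change of -0.69 in H460 did not pass in the fit of that line (limma adjusted p = 0.112) and passed in the fit of all 12 libraries (adjusted p = 0.00980). The average was -0.22 with a 95% confidence interval of -0.43 to -0.01 (adjusted p = 0.107).

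GGCT (ENSG00000006625.13, chr7:30536237-30544457, minus strand, GRCh37) releases 5-oxoproline from gamma-glutamyl amino acids. It was at 44.6 and 39.8 FPKM in the A549 controls and 36.2 and 45.4 FPKM with siRNA 28 and siRNA 30. In H2023 it was at 34.3 and 29.4 FPKM in the controls, 34.4 FPKM with siRNA 28 and 68.5 FPKM with siRNA 30, so that the siRNA 30 library stood alone. In H460 it was lower without overlap, at 51.5 and 46.3 FPKM against 25.8 and 31.6 FPKM, and the log2 fold change of -0.75 ± 0.23 did not pass (limma adjusted p = 0.0717). In the fit of all 12 libraries the GGCT change in H2023 was 0.60 ± 0.28 and did not pass (limma adjusted p = 0.268). With 1 knockdown library left in the line, the change was 1.09 in H2023 without siRNA 28 and -0.89 in H460 without siRNA 30. On average it was -0.07 with a 95% confidence interval of -0.42 to 0.28 (adjusted p = 0.772).

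Within the controls of a line, FPKM can be set side by side between genes because it is per length. SLC3A2, GSR and GCLC were the 3 most abundant of the 10 genes in each line, and CHAC2 and CHAC1 the 2 least abundant. GSR lay at the 97.4, 98.8 and 97.9 percentile of control means among genes at 1 FPKM or above in A549, H2023 and H460, and CHAC2 at the 52.7, 34.0 and 47.5 percentile. In A549 the control ranges of GGT1 and GCLM overlapped, as did those of GCLM and SLC7A11 and those of GGCT and GSS. In H2023 the ranges of GGT1 and GSS, of GSS and GGCT, and of CHAC2 and CHAC1 overlapped, whereas in H460 the only neighbours that overlapped were CHAC2 and CHAC1, and GCLM, SLC7A11, GGCT, GSS and GGT1 followed each other without overlap. In H2023 SLC7A11, at 26.4 to 27.7 FPKM, was below the ranges of GGCT, GSS and GGT1, whereas in A549 and H460 it was above those of GGCT and GSS.

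Whether the effect differed between the lines was tested in the fit of all 12 libraries. None of the 10 genes passed the moderated F test over the 3 lines, in which 2.51% of all genes passed, although 5 had an unadjusted p under 0.05 and the adjusted p ranged from 0.0586 to 0.945. GCLM (adjusted p = 0.0586) and GGT1 (adjusted p = 0.0630) were nearest to the threshold. GGT1 moved past the threshold without either knockdown library of H460, and GGCT without the siRNA 28 library of H2023. Each of these fits leaves 1 library in a group, so they are not read as calls. In the comparison of single pairs of lines, GCLM fell further in H460 than in A549, by a difference of -1.28 on the log2 scale with a 95% confidence interval of -1.87 to -0.69 (limma adjusted p = 0.0381, and 0.0640 to 0.160 without any A549 library, either H2023 control or either H460 control), as the only one of the 10 genes, against 1.71% of all genes. None of the 10 was called in the other direction, where 1.42% of all genes were. H460 against H2023 gave no call among the 10 genes, against 2.02% lower and 1.3% higher of all genes, nor did H2023 against A549, against 0% and 0.00864%. For SLC7A11, at -2.44, -2.25 and -2.10, and for GCLC, at -2.33, -2.44 and -2.65, the log2 fold changes in A549, H2023 and H460 lay within the error of each other (F test adjusted p = 0.913 and 0.814).

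Among the 6 libraries with NRF2 siRNA, siRNA 28 was compared with siRNA 30 in a fit that took the line into account. None of the 10 genes differed between them in limma, nor did any of 15716 genes (0%), of which 1112 were lower and 1741 higher with siRNA 28 at an unadjusted p under 0.05. At an unadjusted p under 0.05 were 3 of the 10, SLC7A11, GSS and GGCT. SLC7A11 was higher with siRNA 28 than with siRNA 30 by 0.83 ± 0.19 on the log2 scale (adjusted p = 0.155) and in 3 of 3 lines, GSS was higher by 0.38 ± 0.12 (adjusted p = 0.212) in 3 of 3 lines, and GGCT was lower by a log2 difference of -0.52 ± 0.18 (adjusted p = 0.220) in 3 of 3 lines. For GCLM the difference was 0.07 with a 95% confidence interval of -0.41 to 0.54.

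The 5 genes that fell on average varied together over the 12 libraries after each line was centred, with Pearson correlations of 0.865 to 0.977 between their log2(FPKM + 1) values, as a description of libraries that share the contrast of NRF2 and control siRNA. The genes most like GCLM by this measure were GMEB2 (0.994), HECW1 (0.993), SRXN1 (0.992), TRIM16L (0.991) and SLC6A6 (0.991). Those most like CHAC1 were CARS1 (0.959), RPS27AP16 (0.959), GARS1 (0.938), DDIT3 (0.938) and AQR (0.937), and for these the H460 control libraries, 17.8 and 0.370 FPKM for CHAC1, span most of the range.

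Genes beside the 10 in the same pathways were read from lists written by function. Of the gamma-glutamyl cycle and peptide hydrolysis list, with 9 genes, 5 were tested in A549, 6 in H2023 and 4 in H460, and only GGT7, a GGT relative, passed in any line, being higher in H460 by a log2 fold change of 1.70 ± 0.29 (limma adjusted p = 0.0224). For cysteine supply by transsulfuration and cysteine breakdown, 0 of 8 tested genes passed in A549, 0 of 9 in H2023 and 2 of 8 in H460, where AHCY, which hydrolyses S-adenosylhomocysteine, fell by 0.96 ± 0.23 (adjusted p = 0.0430) and CSAD, which directs cysteine sulfinate to taurine, rose by 1.72 ± 0.25 (adjusted p = 0.0188). Of the cystine, glutamate, glycine and neutral amino acid carriers, none passed of 7 tested in A549 or of 5 tested in H2023, and 3 of 6 were lower in H460. These were SLC7A5, which also pairs with SLC3A2, at -1.84 ± 0.27 (adjusted p = 0.0188), the glutamate carrier SLC1A3 at -1.81 ± 0.45 (adjusted p = 0.0477) and the glutamine carrier SLC1A5 at -1.37 ± 0.28 (adjusted p = 0.0314). The H460 controls differed for this list too, with 6 of 6 tested genes higher in control library 0 and 4 of them by at least 1.5-fold, against 10.9% of all genes, and SLC1A5 at 153 and 97.7 FPKM. The part of that difference in these calls was not tested. Median log2 fold changes of these 3 lists were 0.22, -0.02 and 0.03 in A549, 0.04, -0.27 and -0.46 in H2023 and 0.09, -0.80 and -0.57 in H460.

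Of the glutamate supply list, 0 of 5 tested genes passed in A549 and in H2023 and 1 of 5 in H460, where the mitochondrial aspartate aminotransferase GOT2 fell by 1.17 ± 0.21 on the log2 scale (limma adjusted p = 0.0243). Of 4 glutaredoxins, 0 passed in A549 and H2023 and 1 in H460, where GLRX3 fell by 1.197 ± 0.27 (adjusted p = 0.0374). Of 6 glutathione transporters none passed in any line, with medians of 0.03, -0.09 and -0.86 in A549, H2023 and H460. Calls in H460 alone are to be read beside its background of 6.86% lower and 7.12% higher genes, and among these genes the F test of a difference between the lines passed for CSAD (adjusted p = 0.0379) and GOT2 (adjusted p = 0.0411) and not for GGT7, AHCY, SLC7A5, SLC1A5 or GLRX3 (adjusted p of 0.0880 to 0.206), while SLC1A3 was tested in H460 alone. Of the ATF4 pathway list, 1 of 10 genes was lower in A549, 1 in H2023 and 2 in H460, against 0.554%, 0.583% and 6.86% of all genes. CEBPB, a C/EBP factor, fell in A549, H2023 and H460, by log2 fold changes of -1.60 ± 0.13, -1.63 ± 0.21 and -1.503 ± 0.35 (adjusted p = 0.00946, 0.0474 and 0.0397), and ASNS, asparagine synthetase, fell by 1.77 ± 0.45 in H460 (adjusted p = 0.0485). Control libraries 0 and 1 of H460 were at 62.8 and 23.8 FPKM for ASNS and at 92.7 and 67.0 FPKM for CEBPB. The part of these differences in the H460 calls was not tested.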

How the data were processed

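The 10 genes and the pathway lists were chosen with earlier results of these data known. The study's methods name TopHat for alignment to hg19 and Cufflinks for abundance, whereas the submitters' processing notes name bcl2fastq 2.15.0, cutadapt 1.15, STAR 2.5.3a, SAMtools, Cuffnorm, HTSeq, DESeq2 and R 3.2.0. The authors deposited FPKM per library, in which reads shared by similar transcripts are divided by estimate. Their deposited tables for each line hold a mean normalised count (a signal value), and DESeq2 fold changes, scores and p-values, and were not used for any comparison. The study names its control libraries biological duplicates and treats cells given either NRF2 siRNA as such too.

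FPKM under 1e-06 was set to 0 (12710 values), and no 2 libraries were identical. Identifiers were matched to symbols for 96.1% of genes, with whole-gene positions from GENCODE lifted to GRCh37, not resolved into exons. Genes with FPKM of at least 1 in at least 2 libraries of the fit (of every line in the 12-library fits) were tested with limma 3.58.1 in R 4.3.3 on log2(FPKM + 1), with the prior variance following mean expression, two-sided, at a Benjamini-Hochberg threshold of 0.05. The 12-library fits used 6 group means and share 1 spread over lines that differ in spread, so their p-values may be too small. The scripts were tested on simulated data. Named are the 10 genes, NFE2L2, up to 4 genes per list that passed in a line, by absolute mean log2 fold change, and the 5 genes most correlated with GCLM and with CHAC1. Alternatives were another pseudocount, no filter, other scalings, no variance trend, a replicate block, and leaving out each library. Files were read with pandas 2.3.3 and numpy 2.4.6 in Python 3.11.15, and matplotlib 3.10.9 drew the plots.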

Additional observations from a re-analysis of the deposited data

Results flagged for a closer look

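The effect of NRF2 siRNA on GCLM differed between H460 and A549 by a test of the difference itself. The log2 fold change was -4.01 in H460 and -2.73 in A549, a difference of -1.28 (limma adjusted p = 0.0381), while the F test over the 3 lines gave an adjusted p of 0.0586. All 4 NRF2 siRNA libraries concerned were below all control libraries of their line. The call was lost without any of the 4 A549 libraries, either H2023 control library or either H460 control library, with differences of -1.45 to -1.10 and adjusted p of 0.0640 to 0.160. Ribosomal RNA removal in A549 and polyA selection in H460 cannot be told apart from the lines. NFE2L2 itself retained 19.0% of its control mean in A549 and 7.68% in H460, at log2 fold changes of -2.24 and -3.60. The part of this in the GCLM difference was not tested.

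CSAD, GOT2 and BACH1, of the lists of cysteine supply, glutamate supply and NRF2 regulators, differed in effect between the lines by the F test, with adjusted p of 0.0379, 0.0411 and 0.0327. BACH1, a repressor at antioxidant response elements, passed in no fit of a single line and was named after its values were seen. In the fit of all 12 libraries it passed in H2023, at -1.14 (limma adjusted p = 0.00472), and on average, at -0.34 (adjusted p = 0.0248). It was at 15.2 and 16.1 FPKM in the A549 controls and 15.2 and 12.8 FPKM with siRNA 28 and siRNA 30, at 19.97 and 19.5 against 9.26 and 7.62 FPKM in H2023, and at 7.84 and 7.33 against 9.41 and 9.53 FPKM in H460. CSAD was at 4.44 and 4.22 FPKM in the A549 controls and 4.31 and 5.58 FPKM with siRNA 28 and siRNA 30, at 6.35 and 7.71 against 10.3 and 6.99 FPKM in H2023, and at 4.01 and 4.31 against 14.996 and 17.1 FPKM in H460. GOT2 was at 79.6 and 74.2 FPKM in the A549 controls and 74.1 and 69.04 FPKM with siRNA 28 and siRNA 30, at 76.7 and 70.7 against 55.7 and 57.3 FPKM in H2023, and at 168 and 158 against 68.7 and 75.7 FPKM in H460.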

How the results depend on the processing

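On average over the lines 5 of the 10 genes were lower under all alternatives that kept the lines and libraries, and 5 or 6 without 1 library, with GCLC between -2.58 and -2.37, GCLM between -3.57 and -2.93 and SLC3A2 between -1.21 and -0.82. With no filter on low values, which brings in up to 35376 genes at low levels, 0 genes were lower in each of A549, H2023 and H460, and 2 differed between H460 and A549. Without 1 library the members lower were 2 to 4 in A549, 0 to 5 in H2023 and 0 to 6 in H460, those higher 0 to 2 in H2023 and 0 to 1 on average, those differing between lines 0 to 1, and those lower in the comparison of H460 with A549 0 to 2. A lone library is then assumed to vary like the other group. The 12-library fit called 1 gene, GGT1, higher in H2023, and the polyA-selected lines alone called 1 gene, GGT1, higher on average. The latter and the fit of A549 and H2023 alone were chosen after seeing the data. Libraries with the same number were not taken as pairs, because their deviations from the group means correlated positively in H2023 (0.31) and H460 (0.16) but not in A549 (-0.03). With the number as a replicate block, 5 genes were lower and 1 higher in H2023, where SLC7A11, SLC3A2 and GGT1 then passed (adjusted p = 0.0150, 0.0389 and 0.0259), and the other counts did not move. The comparison of siRNA 28 with siRNA 30 could not be blocked, since there the number names the siRNA. Of the values of single genes, 674 kept their side of the threshold, 40 lost it and 20 gained it, and none changed sign while called. Rescaling without mitochondrial transcripts moved the median of all genes to -0.07, 0.11 and 0.13 in A549, H2023 and H460.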

Other observations

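The list of NRF2 and its regulators was read in the same way. Of 8 genes tested, 2 were lower in A549 and 2 in H2023, and 4 of 7 were lower in H460, against 0.554%, 0.583% and 6.86% of all genes, with none higher. NFE2L2, the target of the siRNA, is among them in each line. SQSTM1, an autophagy adaptor that binds KEAP1, fell in A549 with a log2 fold change of -2.31 ± 0.14 (limma adjusted p = 0.00338) and in H460 with -2.62 ± 0.40 (adjusted p = 0.0195), beside -1.94 ± 0.28 in H2023 (adjusted p = 0.0608). KEAP1 fell by 1.62 ± 0.20 in H460 (adjusted p = 0.0158), with -0.65 ± 0.13 in A549 and -1.27 ± 0.19 in H2023 (adjusted p = 0.145 and 0.0622). MAFG, a small MAF partner of NRF2, fell in H460 with a log2 fold change of -1.58 ± 0.33 (adjusted p = 0.0332) and in H2023 with -1.65 ± 0.22, where its adjusted p was just under the threshold. The median log2 fold changes of the list were -0.57, -1.21 and -1.58 in A549, H2023 and H460.

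On average over the lines, 14.5% of all genes were lower and 15.2% higher. The cysteine supply and carrier lists held calls in both directions, and the other lists in a single direction. Of 4 tested genes of the gamma-glutamyl cycle, none was lower and GGT7 was higher at 0.97 ± 0.14 (limma adjusted p = 0.00112). Of 8 genes of cysteine supply, CTH, AHCY and GOT1 were lower, with CTH at -0.97 ± 0.18 (adjusted p = 0.00349), and CSAD was higher at 0.71 ± 0.12 (adjusted p = 0.00261). Of 5 carriers, SLC7A5 and SLC1A5 were lower, at -1.17 ± 0.12 and -0.73 ± 0.14 (adjusted p = 0.000198 and 0.00346), and SLC38A2 was higher at 0.72 ± 0.18 (adjusted p = 0.0144). CTH, with -0.02 in A549, -1.67 in H2023 and -1.21 in H460, GOT1 and SLC38A2 passed in no fit of a single line and were named after their values were seen. In the fit of all 12 libraries CTH passed in H2023 and H460 (adjusted p = 0.0163 and 0.0142) and GOT1 in H460 (adjusted p = 0.0113). Of 5 genes of glutamate supply, GOT2 was lower at -0.55 ± 0.08 (adjusted p = 0.00103). Of 4 glutaredoxins 3 were lower, with GLRX3 at -0.67 ± 0.13 (limma adjusted p = 0.00369). Of 6 glutathione transporters 1, ABCC1, also named after its value was seen, was lower at -1.41 ± 0.44 (adjusted p = 0.0340). The share of the ABCC1 control mean that remained was, in the order A549, H2023 and H460, 27.7%, 14.7% and 14.6% for siRNA 28 but 65.5%, 53.2% and 100.5% for siRNA 30. The log2 difference of siRNA 28 from siRNA 30 was -1.84 ± 0.29 and did not pass (limma adjusted p = 0.126). Of 10 genes of the ATF4 pathway 6 were lower, with CEBPB at -1.58 ± 0.16 (adjusted p = 0.000152) and ASNS at -1.12 ± 0.21 (adjusted p = 0.00358). The control libraries of H460 differ for the ATF4 pathway as given above.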
